A study of Mus musculus with 167 samples.

Results

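The CC chemokines described here are 10 of the 57010 Ensembl gene IDs counted in a bulk RNA-seq study of mouse fibroblasts carrying dendritic cell transcription factors: Ccl2, Ccl3, Ccl4, Ccl5, Ccl6, Ccl7, Ccl9, Ccl12, Ccl17 and Ccl22. They were chosen by gene symbol, and each symbol matched 1 row. CC chemokines are small secreted proteins that bind G-protein-coupled receptors and direct leukocytes along their concentration gradients. Ccl2, Ccl7 and Ccl12 are monocyte attractants that act through Ccr2. Ccl3, Ccl4 and Ccl5 attract T cells and monocytes, Ccl6 and Ccl9 are rodent chemokines of macrophages that act through Ccr1, and Ccl17 and Ccl22 attract T cells through Ccr4. Dendritic cells and macrophages are known sources of Ccl17 and Ccl22, and fibroblasts are a known source of Ccl2 and Ccl7.

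Mouse embryonic fibroblasts (MEFs) were transduced by lentivirus with 1 of 3 sets of factors: Spi1 (Pu.1), Irf8 and Batf3 (PIB), Spi1, Irf4 and Prdm1 (PIP), or Spib, Irf8 and Ikzf2 (SII). PIB, PIP and C9a.SII cells came from C9a.MEF, a line homozygous for Clec9a Cre and for a Rosa26 tdTomato reporter. hCD2.SII cells came from hCD2.MEF, heterozygous for hCD2 Cre and a Rosa26 YFP reporter on a C57BL/6 background. All transduced cells and both MEF lines carry a Cre and a reporter allele. Live cells were sorted at day 3, 6 or 9 as CD45+, as reporter+ (tdT+ or YFP+) or as positive for both, called double positive here. CD45 is the leukocyte common antigen. The controls were the 2 untransduced MEF lines and wild-type splenic cDC1 (CD11c+ MHC-II+ XCR1+ CD11b-), cDC2 (CD11c+ MHC-II+ CD11b+ XCR1-) and pDC (CD11c+ Siglec-H+ B220+ BST2+), the type 1 conventional, type 2 conventional and plasmacytoid dendritic cells. The labels give neither animal ages nor whether replicate libraries came from separate cultures or animals, so the p-values measure the spread between these libraries.

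The table held 41 groups of 3 to 5 libraries, with 1146927 to 21976374 counts per library (median 10960122). Levels are given in CPM, counts scaled to the library total, and a count of 3 stood for 0.137 to 2.62 CPM. These limits cover counting error only. Fold changes are from edgeR's quasi-likelihood test with TMM scaling, which can differ from a ratio of CPM means, and a gene is said to have risen or fallen where its adjusted p was below 0.05 and the change at least 2-fold. Transduced-factor counts went against the label in 3 libraries (PIB day 6 tdT+ replicate 4, PIP day 3 tdT+ replicate 5 and C9a.SII day 6 tdT+ replicate 5), none of which is in a group tested below, and ranges over all libraries leave them out. The 7 fibroblast markers summed to 13730, 13970 and 14880 CPM (lowest, median and highest) in C9a.MEF, and the marker list of each splenic subset was detected in that subset. The pDC libraries also carried 1047 to 4009 CPM of the cDC1 list, mostly Irf8, while Clec9a was at 0 in C9a.MEF. In day 9 double positive libraries fibroblast markers remained at 5678 to 7164 CPM with PIB, 939.2 to 1227 with PIP, 1413 to 2141 with C9a.SII and 549.5 to 6592 with hCD2.SII. In the same libraries 8 neutrophil markers summed to at most 10.37 CPM and 9 T and NK cell markers to at most 5.231 CPM. In bulk samples such as these, fewer cells of a type and less RNA per cell cannot be told apart.

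In GENCODE M21 on GRCm38 the members lie in 2 clusters. The monocyte attractants stand together on chromosome 11, + strand, with Ccl2 (ENSMUSG00000035385) at chr11:82035571-82037453, Ccl7 (ENSMUSG00000035373) at chr11:82045712-82047525 and Ccl12 (ENSMUSG00000035352) at chr11:82101845-82103400. Farther along lie Ccl5 (ENSMUSG00000035042) at chr11:83525778-83530518, Ccl9 (ENSMUSG00000019122) at chr11:83572919-83578636, Ccl6 (ENSMUSG00000018927) at chr11:83587882-83593087 and Ccl3 (ENSMUSG00000000982) at chr11:83647844-83649355 on the - strand, and Ccl4 (ENSMUSG00000018930) at chr11:83662584-83664683 on the + strand. Ccl22 (ENSMUSG00000031779) at chr8:94745590-94751699 and Ccl17 (ENSMUSG00000031780) at chr8:94810453-94812036 are neighbours on the + strand of chromosome 8. No 75-base word of an annotated transcript was shared between any 2 members, so reads of that length could be told apart. Ccl2 overlaps Gm17268 and Ccl6 overlaps E230016K23Rik on opposite strands. The counting strand is not given in the sources used here, so reads there could be shared.

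The RefSeq promoter table (GRCm38.p6) held 6 of the 10 members, and the 250 bases upstream of the start are shown for the 4 members that were called different between PIB and PIP cells and had all 250 bases in the table. Capitals mark matches to the motifs searched on both strands; the strand of the gene is printed, 5′ to 3′.
Ccl6 (chr11:83593088-83593337, - strand): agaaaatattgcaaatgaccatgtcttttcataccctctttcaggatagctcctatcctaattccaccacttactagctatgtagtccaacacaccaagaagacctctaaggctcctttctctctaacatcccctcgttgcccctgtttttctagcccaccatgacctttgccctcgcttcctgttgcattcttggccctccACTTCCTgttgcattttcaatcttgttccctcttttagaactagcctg
Ccl9 (chr11:83578637-83578886, - strand): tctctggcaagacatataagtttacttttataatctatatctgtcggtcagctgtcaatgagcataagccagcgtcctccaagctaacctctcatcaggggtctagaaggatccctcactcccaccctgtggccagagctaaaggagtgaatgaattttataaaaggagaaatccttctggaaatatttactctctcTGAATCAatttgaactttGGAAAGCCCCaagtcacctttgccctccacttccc
Ccl12 (chr11:82101595-82101844, + strand): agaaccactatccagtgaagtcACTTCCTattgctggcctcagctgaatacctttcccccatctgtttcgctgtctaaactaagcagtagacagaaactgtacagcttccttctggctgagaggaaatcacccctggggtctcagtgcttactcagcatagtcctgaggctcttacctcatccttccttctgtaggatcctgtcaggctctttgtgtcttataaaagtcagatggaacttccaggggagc
Ccl17 (chr8:94810203-94810452, + strand): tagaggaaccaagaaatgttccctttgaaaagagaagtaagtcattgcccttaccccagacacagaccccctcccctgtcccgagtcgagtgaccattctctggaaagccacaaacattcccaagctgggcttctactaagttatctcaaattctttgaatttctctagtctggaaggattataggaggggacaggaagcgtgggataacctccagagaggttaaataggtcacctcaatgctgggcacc
The PU.1 core AGGAAGT (printed as its reverse complement) was found in Ccl6 at 48 to 42 bases and in Ccl12 at 228 to 222 bases upstream of the start, and in 7.69% of 32851 promoters of this length. In Ccl9 an AP-1 match (TGANTCA, in 6.75% of promoters) stood 53 to 47 bases upstream and an NF-kappaB match (GGG and TTCC spaced by any 3 bases, in 4.65%, printed as its reverse complement) 35 to 26 bases upstream. No match to the Ets-IRF motif (GGAA and GAAA spaced by any 2 bases, in 2.3%), the interferon response motif ISRE (GAAA and GAAA spaced by any 2 bases, in 2.98%) or the Blimp-1 core GAAAGT (in 12.3%) was present in these 4 windows, and none of the 6 motifs was in the Ccl17 window. The Ccl3 window and a shorter one for Ccl22 held none of them either.

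**Figure D1:**
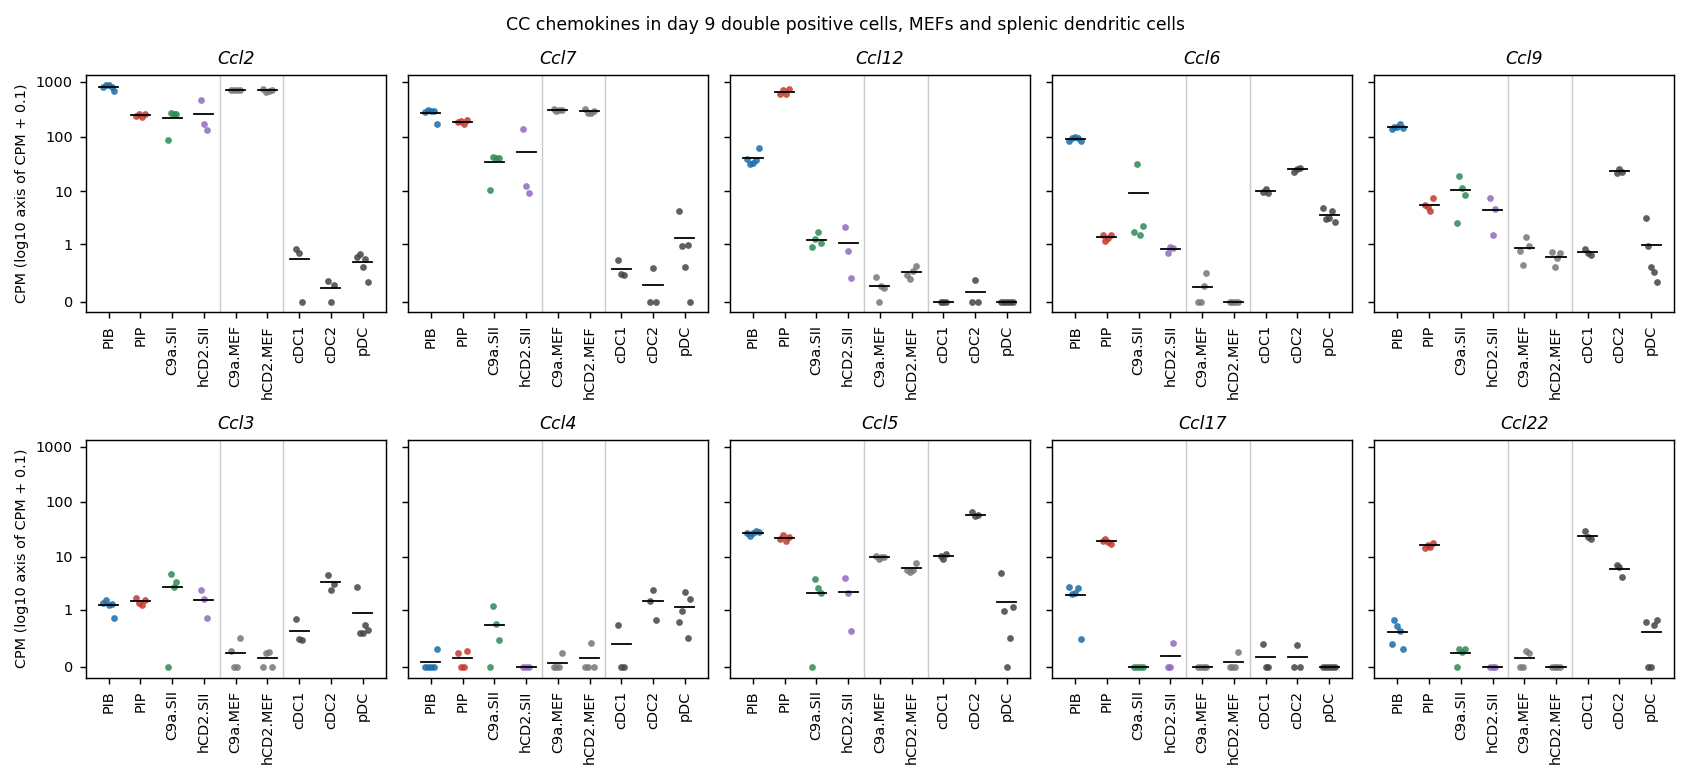
Each point is 1 library and each bar a group mean, on a log10 axis of CPM + 0.1, for the 10 CC chemokines in day 9 double positive cells (PIB, PIP, C9a.SII, hCD2.SII), the 2 MEF lines and splenic cDC1, cDC2 and pDC. Ccl6 and Ccl9 stand highest in PIB cells, Ccl12 and Ccl17 in PIP cells, Ccl22 in cDC1 and PIP cells, and Ccl2 and Ccl7 in all MEF-derived groups but not in splenic cells.

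Each cocktail gave a different set of CC chemokines at day 9. PIB cells carried Ccl6 and Ccl9 at about 90 and 150 CPM, and PIP cells carried Ccl12 at about 650 CPM with Ccl17 and Ccl22. C9a.SII cells carried less Ccl2, Ccl7 and Ccl5 than fibroblasts, and Ccl9 rose to a low level. In hCD2.SII cells Ccl9 also rose to a low level and Ccl2 was called lower. Ccl7 and Ccl5 were lower there without a call, and the calls of Ccl2, Ccl7 and Ccl5 depended on the libraries kept. Against C9a.MEF, 6 of 8 tested members rose and 0 fell in PIB cells, where 21.8% of all genes tested were called (10.4% higher and 11.4% lower). In PIP cells 7 of 9 tested members rose and 1 fell against the same C9a.MEF libraries, with 29.6% of genes called (15.2% higher, 14.5% lower). In C9a.SII cells, again against these libraries, 2 of 5 rose and 3 fell (21.4% of genes called, 10.5% higher and 10.9% lower). In hCD2.SII cells 1 of 4 rose and 1 fell against hCD2.MEF (19.2% called, 10.8% higher and 8.41% lower). Ccl3, Ccl6, Ccl12, Ccl17 and Ccl22 were at or near 0 in both MEF lines and were tested where the transduced libraries held enough counts, so the counts cover different members in each comparison. Where tested, these members and Ccl9, at most 1.379 CPM in a MEF library, passed the low-count filter through their transduced-cell counts. That favours a call of higher, so the counts of rises were largely set by the filter. Members left untested for low counts were Ccl4 in all 4 comparisons, Ccl22 in all but PIP, and Ccl3, Ccl12 and Ccl17 with both SII groups, with Ccl6 untested in hCD2.SII.

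Ccl2 and Ccl7, the monocyte attractants already high in fibroblasts, stayed high with PIB and were lower with the other cocktails. Ccl2 was at 796.2, 850.9, 855.8, 787.4 and 674.7 CPM in the 5 PIB libraries, at 238.8, 254.3, 224.1 and 253.2 CPM in the 4 PIP libraries and at 86.32, 273.5, 254.5 and 253.9 CPM in the 4 C9a.SII libraries, against 705.8, 691.5, 689.8 and 692.1 CPM in C9a.MEF. All PIP and C9a.SII libraries lay below all MEF libraries, whereas the PIB libraries overlapped them. The log2 fold change was 0.26 ± 0.08 (SE) with PIB (adjusted p = 0.0108, under 2-fold), -1.29 ± 0.04 with PIP (8.1e-14) and -1.61 ± 0.26 with C9a.SII (0.00106). In hCD2.SII cells Ccl2 was at 464, 170.5 and 133.5 CPM, against 742.3, 655.2, 677.9 and 699.4 CPM in hCD2.MEF, a fall of 1.45 on the log2 scale (-1.45 ± 0.42, adjusted p = 0.0314). That call was lost in 6 of 7 fits that left out 1 library (adjusted p 0.0606 to 0.0977), all but the fit without hCD2.SII replicate 1, and without the low-count filter (0.173).

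Ccl7 was at 276.7, 298.8, 292.6, 288.2 and 172 CPM in PIB cells, at 185.8, 196.2, 169 and 198.3 CPM in PIP cells and at 10.46, 43.22, 40.66 and 40.59 CPM in C9a.SII cells, against 314.2, 290.8, 304.2 and 298.7 CPM in C9a.MEF. It fell with C9a.SII (log2 fold change -3.05 ± 0.29, adjusted p = 5.0e-05). With PIP it was lower in every library but by less than 2-fold (-0.46 ± 0.05, 2.4e-07), and with PIB the groups overlapped (-0.12 ± 0.16, 0.57). In hCD2.SII cells replicate 1 stood far above the other 2 libraries, at 12.56 and 9.513 CPM (mean of the 3, 53.36 ± 73.3 CPM, SD), against 324.4, 272.2, 268.1 and 297.4 CPM in hCD2.MEF (-2.45 ± 0.97, adjusted p = 0.0897). Without replicate 1 the log2 fold change was -4.78 (5.9e-12), and with all libraries DESeq2 (0.0273) and 1 fit over all groups (6.6e-04) called it. That library also had 6592 CPM of fibroblast markers, against 609.6 and 549.5 CPM in the other 2 hCD2.SII libraries, and their part in the result was not tested.

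Ccl12, the third monocyte attractant, was close to 0 in fibroblasts and rose with both Spi1 cocktails. It reached 592, 707.3, 596.6 and 720.7 CPM in PIP cells and 39.25, 31.24, 32.5, 37.46 and 60.75 CPM in PIB cells, against 0.1825, 0, 0.09192 and 0.07711 CPM in C9a.MEF. No library of either cocktail overlapped the MEF libraries. The log2 fold change was 12.93 ± 0.14 with PIP (adjusted p = 1.2e-19) and 8.73 ± 0.39 with PIB (8.0e-09). C9a.SII cells held 0.8719, 1.297, 1.712 and 1.071 CPM, too few counts to be tested, and hCD2.SII cells 2.213, 0.7476 and 0.1699 CPM against 0.1621 to 0.3361 CPM in hCD2.MEF.

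Ccl6 and Ccl9, the Ccr1 ligands, rose with PIB without overlap. Ccl6 was at 83.68, 92.69, 96.47, 96.14 and 84.16 CPM in PIB cells, against 0, 0, 0.09192 and 0.2313 CPM in C9a.MEF (log2 fold change 9.92 ± 0.22, adjusted p = 1.1e-12). Ccl9 was at 138.2, 146.7, 147.9, 167.5 and 143.6 CPM, against 0.7299, 0.3571, 1.379 and 0.9253 CPM (7.50 ± 0.16, 2.0e-12). The 5 PIB libraries differed among themselves by far less than they did from the MEF libraries. With PIP both genes rose to low levels, Ccl6 to 1.405 ± 0.176 CPM (SD, n = 4; 4.08 ± 0.57, 6.9e-06) and Ccl9 to 5.697 ± 1.4 CPM (2.95 ± 0.29, 1.3e-07). Ccl9 also rose with C9a.SII, at 2.616, 19.12, 11.64 and 8.461 CPM (3.81 ± 0.45, 6.3e-05), and with hCD2.SII, at 7.409, 1.495 and 4.756 CPM against 0.3242 to 0.6978 CPM in hCD2.MEF (3.01 ± 0.54, 0.00383). Of Ccl2, Ccl5, Ccl7 and Ccl9, the members tested in all 4 comparisons, only Ccl9 rose in each. Ccl9 had too few counts to be tested between the 2 MEF lines. It passed the low-count filter here through its transduced-cell counts, which favours a call of higher. Ccl6 in C9a.SII cells was at 31.22 CPM in replicate 2 and at 1.744, 1.541 and 2.249 CPM in the others (6.72 ± 1.65, 0.0133), a call that was lost without the low-count filter (0.0535). C9a.SII replicate 2 also had 285.6 CPM of the 10 macrophage and monocyte markers, against 108.1, 108.5 and 149.3 CPM in the other 3, and their part in the result was not tested. In hCD2.SII cells Ccl6 was at 0.6735, 0.8972 and 0.8494 CPM and hCD2.MEF at 0 in every library, at least 13.4-fold higher against 3 counts over the MEF group, without a test.

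The macrophage and monocyte markers, which include Lyz2 and Csf1r, had their highest sum among these day 9 groups in PIB cells, as Ccl6 and Ccl9 did. Their sum ran from 786.1 to 1274 CPM (median 987.8) in PIB cells, from 124.4 to 162.5 CPM in PIP cells, from 108.1 to 285.6 CPM in C9a.SII cells and from 50.71 to 151.3 CPM in hCD2.SII cells, against 16.97 to 20.62 CPM for C9a.MEF and 8.915 to 11.09 CPM for hCD2.MEF. In PIB cells 7 of the 10 markers averaged at least 1 CPM, and none was at 0 in every library. Lyz2 alone averaged 805 CPM in PIB cells, so the sum there was mostly Lyz2. Their part in the Ccl6 and Ccl9 results was not tested.

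Of Ccl3, Ccl4 and Ccl5, inflammatory chemokines that T cells, NK cells and macrophages are known to release, Ccl3 and Ccl4 were low. Ccl5 was at 27.47, 23.52, 27.1, 29.13 and 28.65 CPM in PIB cells and at 20.77, 24.92, 19.41 and 22.63 CPM in PIP cells, against 10.22, 9.195, 9.652 and 10.02 CPM in C9a.MEF. It rose 2.9-fold with PIB (log2 fold change 1.53 ± 0.09, adjusted p = 5.1e-09) and 2.62-fold with PIP (1.39 ± 0.10, 1.0e-09), without overlap. In C9a.SII cells Ccl5 was at 0, 3.782, 2.653 and 2.142 CPM and fell (-1.84 ± 0.28, 2.5e-04). In hCD2.SII cells it was at 4.041, 2.093 and 0.3397 CPM, against 5.722, 5.268, 5.562 and 7.646 CPM in hCD2.MEF (-1.41 ± 0.53, 0.0659, and -2.32 with 7.7e-04 without replicate 1). DESeq2 (0.0222) and edgeR without the low-count filter (7.6e-05) also called that Ccl5 difference. Ccl3 rose with PIB to 1.353, 1.545, 1.259, 1.289 and 0.6689 CPM and with PIP to 1.692, 1.377, 1.258 and 1.551 CPM, against 0.08063 ± 0.109 CPM in C9a.MEF (SD, n = 4; 3.75 ± 0.61, 1.4e-04, and 4.15 ± 0.56, 4.9e-06). In the SII cells Ccl3 was not tested against the MEFs, but its levels were not lower than with PIB or PIP in most libraries. It was at 0, 4.862, 2.739 and 3.427 CPM in C9a.SII cells and at 2.405, 1.645 and 0.6795 CPM in hCD2.SII cells. C9a.MEF held at most 0.2313 CPM and hCD2.MEF at most 0.08829 CPM. Ccl4 stayed at or below 0.3874 CPM in every PIP library of any gate or day, was at 0 in 24 of 36 PIB libraries, and was at no time above 2.275 CPM in a transduced library.

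Ccl17 and Ccl22, the Ccr4 ligands, rose with PIP. Ccl17 was at 19.54, 21.38, 18.51 and 16.97 CPM in PIP cells and at 2.787, 1.974, 2.147, 2.578 and 0.223 CPM in PIB cells, against 0 in all 4 C9a.MEF libraries. Set against 3 counts over the C9a.MEF group (0.0652 CPM), it was at least 293-fold higher with PIP (adjusted p = 1.8e-12) and at least 29.8-fold higher with PIB (7.8e-04). It passed the filter in PIB cells through its PIB counts, and no longer did in fits without PIB replicate 1, 2, 3 or 4, where Ccl3 dropped out too and 4 members were called. Ccl22 was at 14.69, 16.66, 14.91 and 17.8 CPM in PIP cells, against 0, 0, 0.09192 and 0.07711 CPM in C9a.MEF (8.42 ± 0.28, 6.2e-14). In PIB cells it was at 0.1592, 0.6008, 0.4442, 0.3437 and 0.1115 CPM and was not tested. Both SII groups had Ccl17 and Ccl22 at or near 0. Ccl17 was at 0 in 30 of 37 C9a.SII libraries and 25 of 35 hCD2.SII libraries over all days and gates. Ccl22 was at 0 in 25 of 37 and 30 of 35.

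**Figure D2:**
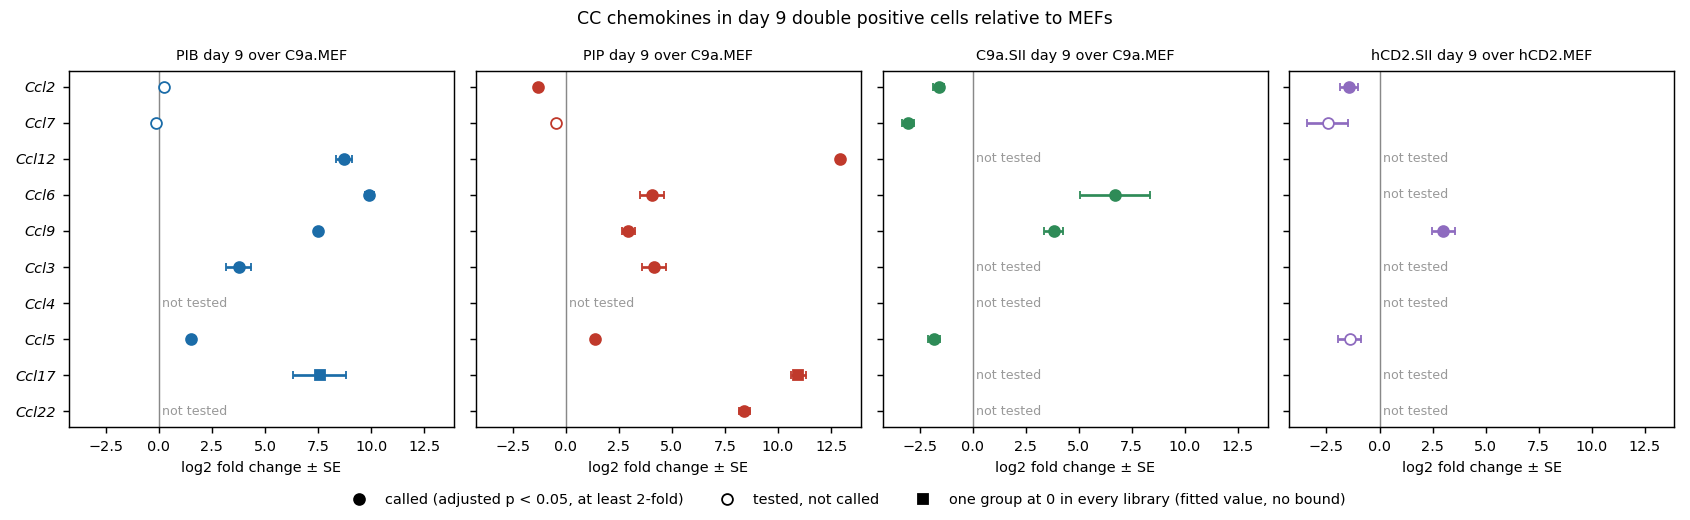
Log2 fold change with its standard error for each tested member in day 9 double positive cells over their own MEF line, in a panel per cocktail; filled marks passed the adjusted p and the 2-fold threshold, open marks did not, and squares mark members at 0 in every library of a group. The points of PIB lie from -0.12 (Ccl7) to 9.92 (Ccl6), those of PIP from -1.29 (Ccl2) to 12.93 (Ccl12), and both SII panels hold Ccl2, Ccl5 and Ccl7 below 0 and Ccl9 above it.

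Each cocktail already differed from its MEFs in some members at day 3, a day at which the cocktails were not tested against each other. Against C9a.MEF, PIB day 3 double positive cells had 4 of 7 tested members higher and 0 lower (22.8% of genes called, 11.9% higher and 10.9% lower). PIP cells had 3 of 6 higher and 2 lower (21.8%, 10.6% and 11.1%), and C9a.SII cells 1 of 4 higher and 2 lower (17.6%, 8.84% and 8.71%). Against hCD2.MEF, hCD2.SII cells had 1 of 4 higher and 2 lower (24.1%, 10.8% and 13.3%). Where tested, Ccl6, Ccl9, Ccl12 and Ccl17 passed the low-count filter through their transduced-cell counts. The counts of members higher were thus largely set by the filter. Ccl2, Ccl5, Ccl7 and Ccl9 were the members tested in the SII groups. Of these only Ccl9 rose in both, to 4.373 ± 2.01 CPM in C9a.SII cells (2.37 ± 0.43, adjusted p = 0.00234) and 3.255 ± 0.263 CPM in hCD2.SII cells (SD, n = 4 each; 2.58 ± 0.29, 1.8e-05). In PIB cells Ccl9 was at 99.38 ± 15.9 CPM at day 3 (SD, n = 4; log2 fold change 7.09 ± 0.16, adjusted p = 2.6e-12) and Ccl6 at 15.86, 16.32, 12.75 and 13 CPM (7.45 ± 0.33, 4.2e-10). Ccl12 was at 22, 20.61, 18.19 and 18.63 CPM in these PIB libraries (7.90 ± 0.25, 1.3e-11) and Ccl17 at 6.193, 5.205, 5.435 and 4.171 CPM, at least 80.5-fold above C9a.MEF (1.5e-07). In PIP cells at day 3 Ccl12 was at 395.7, 402.1 and 157.8 CPM (11.81 ± 0.65, 1.3e-05) and Ccl9 at 4.601 ± 1.6 CPM (SD, n = 3; 2.55 ± 0.42, 0.00143). Ccl17 was at 8.134, 7.914 and 1.137 CPM in these PIP libraries, at least 87.8-fold above C9a.MEF (0.0095, and 0.129 without the low-count filter).

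The day 3 falls were in Ccl2, Ccl5 and Ccl7, the only members with enough counts in the MEFs for a fall to be called. Ccl2 was at 151.9, 160.2 and 169.2 CPM in PIP cells, at 188.5, 99.66, 195 and 295.8 CPM in C9a.SII cells and at 222.8, 228.9, 89.98 and 99.87 CPM in hCD2.SII cells, with log2 fold changes of -2.01 ± 0.07 (adjusted p = 6.3e-07), -1.79 ± 0.27 (8.1e-04) and -2.05 ± 0.33 (0.00121) over their own MEFs. Ccl7 fell with both SII groups, to 35.71 ± 22.4 CPM in C9a.SII cells (-3.05 ± 0.35, 1.8e-04) and 41.48 ± 21.7 CPM in hCD2.SII cells (-2.75 ± 0.38, 6.0e-04; SD, n = 4 each), as Ccl2 did. Ccl5 in PIP cells was at 2.352, 1.716 and 8.186 CPM (-1.26 ± 0.43, 0.0428), a call lost with a replicate block (0.0611), in 1 fit over all groups (0.103) and in 6 of 7 fits without 1 library (0.0801 to 0.14). Ccl5 in C9a.SII cells was at 16.82 CPM in replicate 4 and at 1.362, 0.1898 and 1.783 CPM in the others (-1.0 ± 0.81, 0.367, and -2.84 with 7.9e-04 without replicate 4). In hCD2.SII cells Ccl5 was at 1.701, 2.255, 4.619 and 3.504 CPM, lower in all 4 libraries but by less than 2-fold (-0.94 ± 0.29, 0.0159), and it passed 2-fold without hCD2.SII replicate 3 (-1.21), without hCD2.SII replicate 4 (-1.02) and without hCD2.MEF replicate 2 (-1.0).

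**Figure D3:**
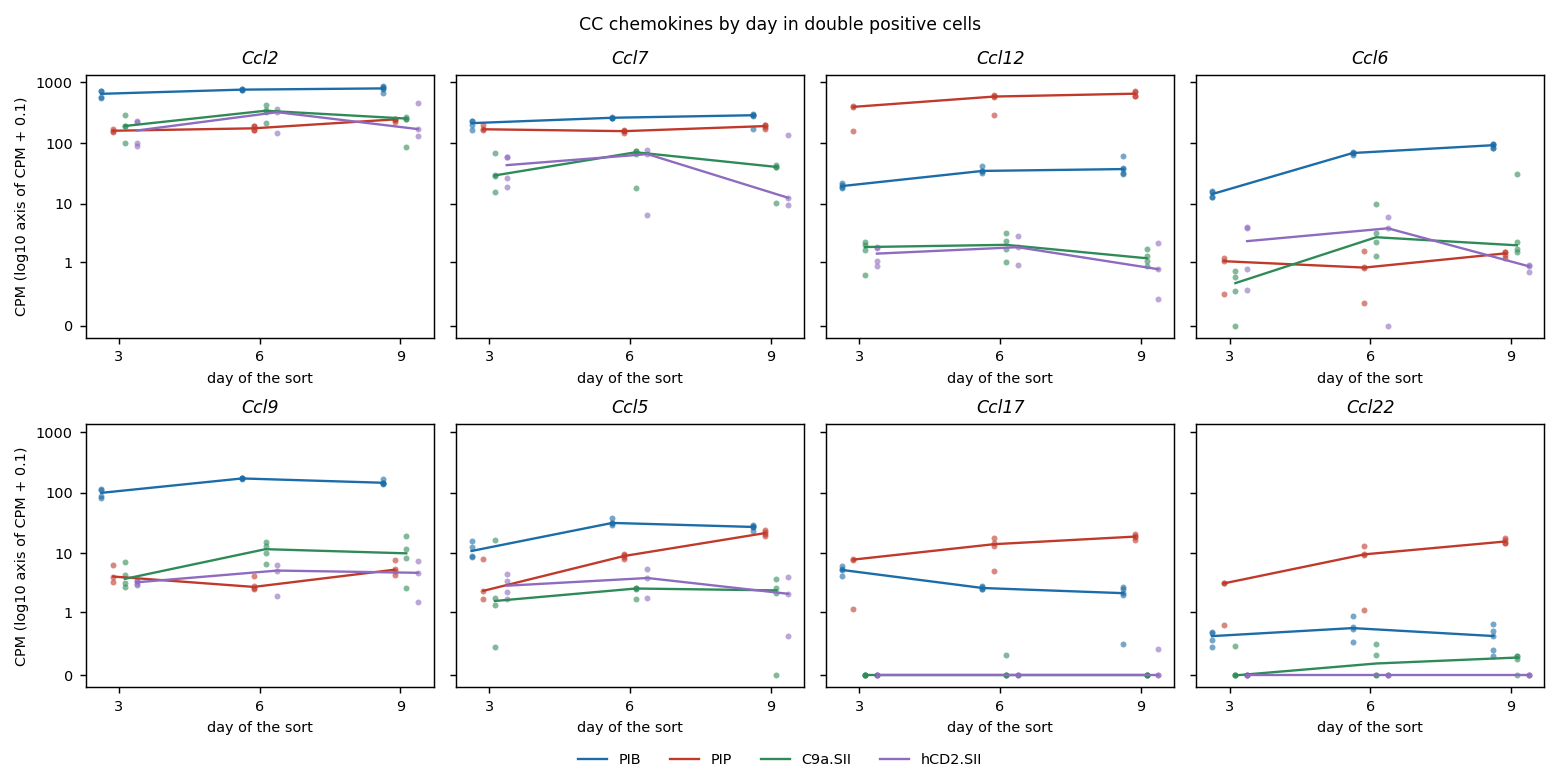
CPM of 8 members in double positive libraries at days 3, 6 and 9 for each cocktail; points are libraries and lines join the medians. In PIB cells Ccl6 climbs from a day 3 range of 12.75 to 16.32 CPM to 83.68 to 96.47 CPM at day 9, and in PIP cells Ccl22 climbs from 0.5684 to 3.185 CPM to 14.69 to 17.8 CPM.

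Between day 3 and day 9 of the PIB course Ccl6 kept rising while Ccl17 fell, with 1 of 8 tested members higher and 1 lower and 12.1% of genes called (3.67% higher, 8.47% lower). Ccl6 was at 12.75 to 16.32 CPM at day 3, at 64.89 to 72.29 CPM at day 6 and at 83.68 to 96.47 CPM at day 9 (log2 fold change of day 9 over day 3, 2.44 ± 0.08, adjusted p = 2.7e-09). Ccl17 was at 4.171 to 6.193 CPM at day 3, at 2.492 to 2.878 CPM at day 6 and at 0.223 to 2.787 CPM at day 9 (-1.60 ± 0.42, 0.0119, and 0.0935 in 1 fit over all groups). Ccl5 was at 8.828 to 16.21 CPM at day 3, at 29.4 to 39 CPM at day 6 and at 23.52 to 29.13 CPM at day 9, just short of the 2-fold threshold (0.99 ± 0.12, 9.7e-05). It crossed that threshold without PIB day 9 replicate 2 (1.04), without PIB day 9 replicate 3 (1.0), without PIB day 3 replicate 1 (1.16), with a replicate block (1.01) and without the low-count filter (1.12). Ccl9 (0.37 ± 0.07, 0.00211) and Ccl12 (0.80 ± 0.17, 0.004) were higher at day 9 by less than 2-fold. Ccl9 was at 167.4 to 175.8 CPM at day 6, above most day 9 libraries. The macrophage and monocyte markers also climbed, from a median of 155.7 CPM at day 3 through 546 CPM at day 6 to 987.8 CPM at day 9, and their part in the result was not tested.

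In the PIP course 2 of 9 tested members rose and 0 fell between day 3 and day 9, with 6.21% of genes called (3.25% higher, 2.95% lower). Ccl22 was at 3.185, 3.147 and 0.5684 CPM at day 3, at 9.458, 13.52, 9.87 and 1.066 CPM at day 6 and at 14.69 to 17.8 CPM at day 9 (log2 fold change 2.81 ± 0.42, adjusted p = 0.00457). Ccl5 was at 2.352, 1.716 and 8.186 CPM at day 3, at 8.107 to 9.87 CPM at day 6 and at 19.41 to 24.92 CPM at day 9 (2.63 ± 0.44, 0.00754). Day 9 was above day 3 in every library for both genes. Ccl12 (1.12 ± 0.33, 0.0607) and Ccl17 (1.77 ± 0.52, 0.0596) were also higher in every day 9 library. Both missed the threshold with edgeR and passed with DESeq2 (0.00279 and 0.00261). Ccl17 also passed without PIP day 3 replicate 3 (1.31, 1.9e-05) and, with the 3 contradicting libraries left out of 1 fit over all groups, at 0.0435. Replicate 3 of day 3 and replicate 4 of day 6 were low in Ccl12 (157.8 and 296 CPM), Ccl17 (1.137 and 5.062 CPM) and Ccl22 (0.5684 and 1.066 CPM). They also had the most fibroblast-marker signal in their groups, 3947 CPM against 2299 and 2363 CPM at day 3 and 4050 CPM against 1165 to 1326 CPM at day 6, and its part in these values was not tested.

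In the SII courses no member was called between day 9 and day 3. In C9a.SII cells 0 of 6 tested members passed edgeR's adjusted p, 2 had an unadjusted p under 0.05 (Ccl6 and Ccl9) and DESeq2 called 0, where 0.103% of genes were called (0.0965% higher, 0.00643% lower). DESeq2 gave no adjusted p for 2 of the 6. Ccl6 was at 0 to 0.6859 CPM at day 3, at 1.313 to 9.949 CPM at day 6 and at 1.541 to 31.22 CPM at day 9 (4.40 ± 1.20, 0.225), and it passed in 1 fit over all groups (1.9e-04). In hCD2.SII cells 0 of 5 passed, 0 had an unadjusted p under 0.05 and DESeq2 called 0, where 6.55% of genes were called (4.48% higher, 2.07% lower). Ccl9 was at 2.954 to 3.485 CPM at day 3, at 1.934 to 6.389 CPM at day 6 and at 1.495 to 7.409 CPM at day 9 in hCD2.SII cells, groups that overlapped.

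Set against each other at day 9, the PIB and PIP cells, which share Spi1 and the C9a.MEF line, differed in 6 of 9 tested members, 3 higher and 3 lower in PIB, where 21.6% of genes were called (10.6% higher, 11% lower). Ccl6 was 58.7-fold higher in PIB than in PIP cells (log2 fold change 5.88 ± 0.11, adjusted p = 3.6e-13), Ccl9 23.9-fold (4.58 ± 0.12, 4.0e-12) and Ccl2 2.98-fold (1.57 ± 0.08, 3.5e-09). Ccl12 was lower in PIB cells by 18-fold (-4.17 ± 0.18, 1.9e-08), Ccl17 by 10.4-fold (-3.38 ± 0.34, 1.3e-05) and Ccl22 by 49.9-fold (-5.64 ± 0.24, 3.9e-10). The libraries of the 2 cocktails did not overlap in any of these 6 genes. Ccl22 passed the low-count filter through its PIP counts, which favours a call of lower in PIB cells. Ccl5 (0.17 ± 0.09, 0.13), Ccl7 (0.37 ± 0.16, 0.0718) and Ccl3 (-0.38 ± 0.29, 0.284) overlapped between PIB and PIP.

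PIB cells were higher than C9a.SII cells in 7 of 8 tested members and lower in 1, where 18.5% of genes were called (8.57% higher, 9.92% lower). Ccl12 was 29.7-fold higher in PIB (log2 fold change 4.89 ± 0.27, adjusted p = 1.1e-07), Ccl9 12.9-fold (3.69 ± 0.31, 9.4e-06), Ccl5 10.3-fold (3.37 ± 0.24, 9.2e-07), Ccl7 7.63-fold (2.93 ± 0.32, 7.3e-05) and Ccl2 3.66-fold (1.87 ± 0.25, 1.8e-04). Ccl17 was at least 20.3-fold higher against 3 counts over the C9a.SII group (0.003). It passed the low-count filter through its PIB counts, which favours a call of higher. Ccl6 (3.16 ± 0.88, 0.0244) lost its call without the low-count filter (0.0738) and with a replicate block (0.0641). Ccl3 was lower in PIB, at 0.6689 to 1.545 CPM, than in C9a.SII, at 0, 4.862, 2.739 and 3.427 CPM, with overlap (-1.35 ± 0.41, 0.0212). That call was lost with a replicate block (0.127), in 1 fit over all groups (0.137), without C9a.SII replicate 2 (0.103) and without C9a.SII replicate 4 (0.0561).

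C9a.SII cells were lower than PIP cells in 5 of 9 tested members and higher in 0, where 22.5% of genes were called (11.5% higher, 10.9% lower). Ccl12 fell furthest short, by 9.09 on the log2 scale (-9.09 ± 0.18, adjusted p = 3.0e-10), followed by Ccl22 (-7.38 ± 0.24, 3.6e-09), Ccl5 (-3.21 ± 0.26, 2.2e-06) and Ccl7 (-2.57 ± 0.28, 8.2e-05), and Ccl17 was at least 200-fold lower in C9a.SII cells. Ccl12, Ccl17 and Ccl22 passed the low-count filter through their PIP counts, which favours a call of lower in C9a.SII cells. Ccl2, at 217.1 ± 87.6 CPM in C9a.SII and 242.6 ± 14.2 CPM in PIP cells (SD, n = 4 each), overlapped (-0.31 ± 0.25, 0.344). Ccl3 (0.96 ± 0.41, 0.0794) was called without C9a.SII replicate 1 (1.1, 0.00494), and Ccl6 (2.66 ± 1.05, 0.076) without C9a.SII replicate 3 (3.06, 0.0357), without C9a.SII replicate 4 (3.03, 0.0491) and in 1 fit over all groups (0.00185). Without C9a.SII replicate 2, the library with 31.22 CPM, the Ccl6 log2 fold change was 0.25.

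**Figure D4:**
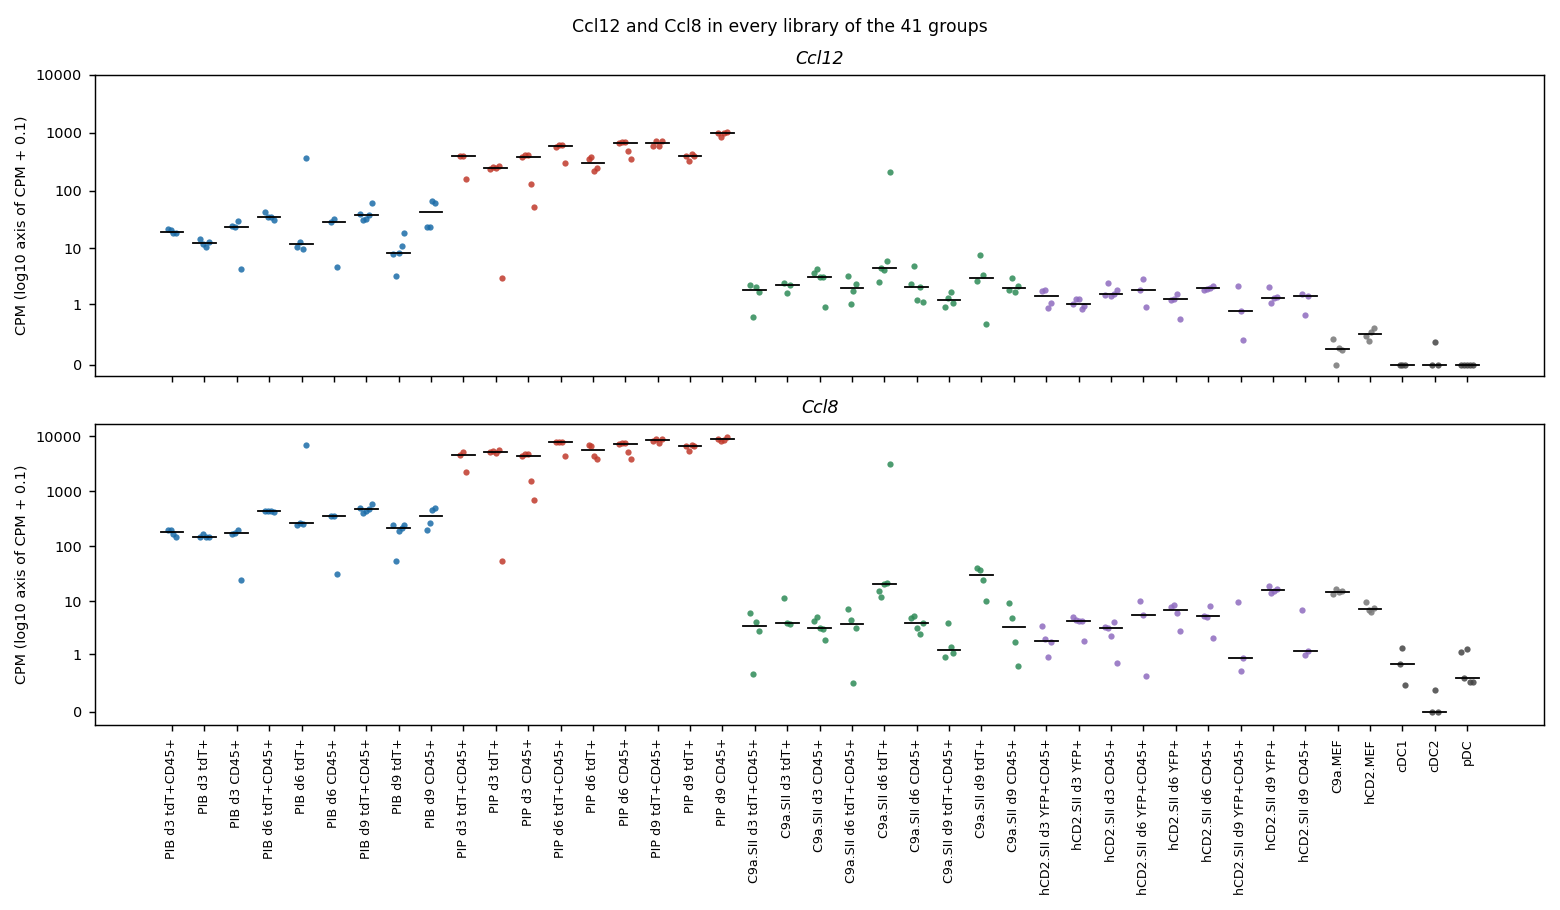
CPM of Ccl12 and Ccl8 in every library of the 41 groups, with a line at each group median. The median of every PIP group stands above that of every other group in both genes, with Ccl12 medians up to 970.7 CPM in day 9 CD45+ cells, and the MEF, splenic and SII groups stay low; the single high points in PIB and C9a.SII day 6 tdT+ cells are the libraries whose factors go against their labels.

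Over all days and gates, without the 3 contradicting libraries, Ccl12 ran between 51.89 and 1006 CPM (median 402.1) in 37 PIP libraries and between 3.301 and 65.54 CPM (22.56) in 36 PIB libraries. Its range was 0.3959 to 7.575 CPM (2.229) over 37 libraries of C9a.SII and 0.1699 to 2.892 CPM (1.425) over 35 of hCD2.SII. Its highest group medians were all PIP: 970.7 CPM in day 9 CD45+, 656.2 CPM in day 6 CD45+ and 652 CPM in day 9 double positive cells, the last 2 with overlapping libraries. Ccl6 was at 11.52 CPM or more (median 66.15) in every PIB library and reached at most 3.644 CPM with PIP, 31.22 CPM with C9a.SII and 6.208 CPM with hCD2.SII. Ccl9 ran from 71.42 to 184.8 CPM (117.1) in PIB libraries and reached at most 16.2 CPM with PIP, 30.45 CPM with C9a.SII and 21.11 CPM with hCD2.SII. For Ccl9 every PIB library was thus above every library of the other cocktails, and for Ccl12 the PIP and PIB ranges overlapped. With all libraries kept, the mean of Ccl12 was 97.9 CPM in PIB day 6 tdT+ cells and 11.16 CPM without the contradicting library, 44.98 and 4.345 CPM in C9a.SII day 6 tdT+ cells, and 200.8 and 250.2 CPM in PIP day 3 tdT+ cells.

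Against their splenic counterparts the transduced cells carried fibroblast chemokines that the splenic cells lacked. In PIB double positive cells 8 of 9 tested members were higher and 1 lower than in cDC1, where 57.5% of genes were called (25.4% higher, 32.2% lower) and the median of all genes was shifted by -0.106 on the log2 scale. Ccl2, Ccl3, Ccl7, Ccl9, Ccl12 and Ccl17 were at or below 0.7889 CPM in every cDC1 library. They passed the low-count filter through their PIB counts, so the count of 8 was largely set by the filter. Ccl2 and Ccl7 were at 0 to 0.7889 CPM in the 3 cDC1 libraries (log2 fold changes 10.87 ± 0.28 and 9.95 ± 0.40, adjusted p 6.3e-12 and 9.6e-09), and Ccl12, at 0 in all 3, was at least 213-fold higher in PIB. Ccl6 was at 83.68 to 96.47 CPM in PIB cells, against 9.625, 11.21 and 9.276 CPM in cDC1 (3.48 ± 0.12, 2.0e-12), and Ccl5 at 23.52 to 29.13 CPM, against 10.1, 9.011 and 11.29 CPM (1.72 ± 0.14, 3.2e-08). Ccl9 (8.01 ± 0.16, 1.9e-14), Ccl17 (4.97 ± 1.07, 8.8e-04) and Ccl3 (1.98 ± 0.55, 0.00449) were higher in PIB as well. The macrophage and monocyte markers summed to 786.1 to 1274 CPM in these PIB cells, against a median of 135.7 CPM in cDC1, and their part in these results was not tested. Ccl22 was the member that PIB cells lacked: 0.3319 ± 0.202 CPM (SD, n = 5), against 29.03, 23.3 and 20.77 CPM in cDC1 (-5.81 ± 0.31, 3.3e-10).

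In PIP double positive cells 5 of 9 tested members were higher and 4 lower than in cDC2, where 56% of genes were called (29.3% higher, 26.7% lower). Ccl12 (13.70 ± 0.24, adjusted p = 1.1e-16), Ccl2 (11.45 ± 0.20, 1.1e-16), Ccl7 (11.08 ± 0.26, 4.6e-15) and Ccl17 (8.61 ± 0.39, 6.0e-12) were all at or below 0.3009 CPM in each cDC2 library. These members passed the low-count filter through their PIP counts, which set their direction. Ccl22 was at 14.69 to 17.8 CPM in PIP cells, against 6.945, 6.469 and 4.231 CPM in cDC2 (1.64 ± 0.17, 3.1e-07, and 0.0644 in 1 fit over all groups). The 4 members lower in PIP were Ccl6, Ccl9, Ccl5 and Ccl3. Ccl6 was at 1.181 to 1.551 CPM, against 23.01, 25.43 and 26.93 CPM in cDC2 (-3.99 ± 0.18, 4.5e-12). Ccl9 was at 4.402 to 7.666 CPM, against 21.92, 25.28 and 23.01 CPM (-1.87 ± 0.17, 3.8e-08). Ccl5 was at 19.41 to 24.92 CPM in PIP cells, against 64.27, 55.21 and 56.55 CPM in cDC2 (-1.24 ± 0.10, 1.6e-08, and 0.0518 in 1 fit over all groups). Ccl3 was at 1.258 to 1.692 CPM, against 4.63, 2.407 and 3.096 CPM (-1.02 ± 0.33, 0.00958), close to the 2-fold threshold, and missed it without PIP replicate 2 (-0.97), PIP replicate 3 (-0.94), cDC2 replicate 1 (-0.74) or the low-count filter (-0.95). In 1 fit over all groups it missed both thresholds (-0.94, adjusted p = 0.249). The 10 macrophage and monocyte markers summed to 124.4 to 162.5 CPM in PIP cells, against 695.1 to 736.9 CPM in cDC2, and their part in these results was not tested.

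**Figure D5:**
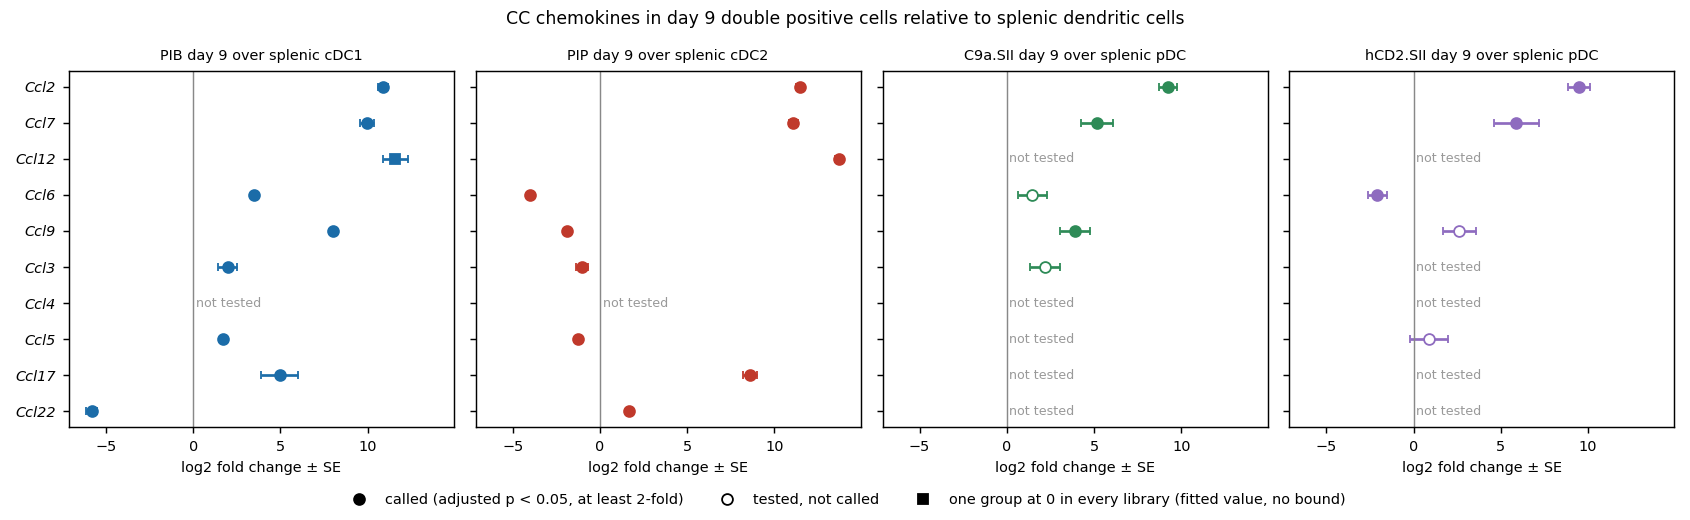
Log2 fold change with its standard error of each tested member in day 9 double positive cells over the splenic subset set against them, PIB over cDC1, PIP over cDC2, C9a.SII over pDC and hCD2.SII over pDC; filled marks passed both thresholds, open marks did not, and squares mark members at 0 in every library of a group. Ccl2 lies between 9.26 and 11.45 in all 4 panels, and Ccl22 lies at -5.81 for PIB and 1.64 for PIP.

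SII cells were set against pDC with the same 5 pDC libraries in both comparisons, and pDC replicate 1 stood apart with 1160 CPM of fibroblast markers against 9.115 to 93.16 CPM in the other 4. C9a.SII cells were higher in 3 of 5 tested members and lower in 0 (38.2% of genes called, 18.4% higher and 19.7% lower), and hCD2.SII cells were higher in 2 of 5 and lower in 1 (33%, 15.2% higher and 17.7% lower, with the median of all genes shifted by -0.242). Ccl2 was at 0.1232 to 0.6211 CPM in pDC (log2 fold change 9.26 ± 0.52 with C9a.SII, adjusted p = 9.2e-07, and 9.49 ± 0.64 with hCD2.SII, 1.2e-05). Ccl7 was at 4.352 CPM in pDC replicate 1 and at 0 to 0.967 CPM in the others (5.16 ± 0.91, 0.00123, and 5.87 ± 1.29, 0.00818). Ccl2 and Ccl7 passed the low-count filter through their SII counts, which favours a call of higher. Ccl9 was called with C9a.SII (3.90 ± 0.86, 0.00393, with overlap), and with hCD2.SII not (2.62 ± 0.95, 0.0548), although DESeq2 (0.0213), DESeq2's size factors (0.0427), edgeR without the low-count filter (3.3e-04) and 1 fit over all groups (4.2e-05) called it. Ccl3 in C9a.SII over pDC (2.18 ± 0.86, 0.0605) passed without C9a.SII replicate 1 (2.54, 0.0167), without the low-count filter (0.048) and in 1 fit over all groups (6.7e-04). Ccl6 was lower in hCD2.SII, at 0.6735, 0.8972 and 0.8494 CPM, than in pDC, at 4.896, 3.105, 3.183, 4.351 and 2.71 CPM (-2.09 ± 0.55, 0.0148). That call was lost without the low-count filter (0.179), with a replicate block (0.0851), in 1 fit over all groups (0.118) and without hCD2.SII replicate 1 (0.0728), 2 (0.0693) or 3 (0.0642). Ccl12 was at 0 in all 5 pDC libraries and at least 8.44-fold higher in C9a.SII and 7.12-fold higher in hCD2.SII, untested. Ccl4, at 0.2417 to 2.228 CPM in pDC, was at least 8.49-fold lower in hCD2.SII, where no library had a count.

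The splenic subsets themselves differed in Ccl3, Ccl5, the Ccr1 ligands and Ccl22. cDC2 were higher than cDC1 in 4 of 5 tested members and lower in 1, where 34.8% of genes were called (10.7% higher, 24.1% lower). Ccl9 was at 21.92, 25.28 and 23.01 CPM in cDC2, against 0.7889, 0.6594 and 0.6049 CPM in cDC1 (log2 fold change 5.02 ± 0.30, adjusted p = 1.1e-12), and Ccl5 at 64.27, 55.21 and 56.55 CPM, against 10.1, 9.011 and 11.29 CPM (2.51 ± 0.15, 1.1e-12). Ccl3 (3.09 ± 0.56, 6.4e-05) and Ccl6 (1.31 ± 0.18, 1.6e-06) were higher in cDC2 too. Ccl3 and Ccl9 passed the low-count filter through their cDC2 counts. Ccl22 was lower, at 5.882 ± 1.45 against 24.37 ± 4.23 CPM (SD, n = 3 each; -2.09 ± 0.22, 3.1e-08, and 0.0926 in 1 fit over all groups). The cDC2 also had 695.1 to 736.9 CPM of macrophage and monocyte markers, against a median of 135.7 CPM in cDC1, and their part in these results was not tested. pDC were lower than cDC2 in all 5 tested members (34.9% of genes called, 23.2% higher and 11.7% lower, median shift of all genes 0.125) and lower than cDC1 in all 3 tested (15.8%, 7.88% in each direction, median shift 0.145). Ccl5 and Ccl22 in both comparisons, and Ccl3 and Ccl9 against cDC2, passed the low-count filter through their cDC counts. Members low in the cDC went untested, so these counts of falls were largely set by the filter. Against cDC1, Ccl22 was lower in pDC at 0 to 0.6159 CPM (-5.94 ± 0.59, 2.9e-05), as were Ccl5 (-3.04 ± 0.82, 0.0232) and Ccl6 (-1.51 ± 0.39, 0.0192). Against cDC2 the falls were in Ccl5 (-5.73 ± 0.69, 2.0e-04), Ccl9 (-5.11 ± 0.69, 2.7e-04), Ccl6 (-2.90 ± 0.31, 5.0e-05), Ccl22 (-4.01 ± 0.77, 0.00302) and Ccl3 (-2.32 ± 0.78, 0.0365). Of these calls, 3 were lost when 1 library was left out: Ccl5 against cDC1 (adjusted p 0.0572 to 0.0824 without pDC replicate 2 or 4 or any cDC1 library), Ccl6 against cDC1 (0.0823 to 0.108 without any cDC1 library) and Ccl3 against cDC2 (0.0608 to 0.131 without pDC replicate 2, 3 or 4 or any cDC2 library). The Ccl6 call against cDC1 was also lost without the low-count filter (0.0618), with a replicate block (0.0669) and in 1 fit over all groups (0.114).

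With all libraries kept, few members were called different between double positive and reporter+ cells at day 9. A missed threshold does not show that the gates were alike. In PIB cells 1 of 8 tested members was higher in double positive than in tdT+ cells and 0 lower, where 1.7% of genes were called (0.94% higher, 0.762% lower). Ccl12 was at 31.24 to 60.75 CPM in double positive cells, against 8.047, 3.301, 8.279, 11.24 and 18.63 CPM in tdT+ cells (log2 fold change 2.08 ± 0.36, adjusted p = 0.00813, and 0.118 in 1 fit over all groups). Ccl5 was higher too, by less than 2-fold, at 23.52 to 29.13 CPM against 13.46 to 19.39 CPM (0.82 ± 0.11, 0.00135). The macrophage and monocyte markers were also higher in the PIB double positive cells, at 786.1 to 1274 CPM against 159.3 to 582.4 CPM, and their part in the result was not tested. In PIP cells 0 of 9 were called by edgeR, 5 had an unadjusted p under 0.05, DESeq2 called 1, Ccl9 (0.0292), and edgeR without the low-count filter called 2, Ccl9 (0.00513) and Ccl3 (0.0162), where 0.0122% of genes were called (0% lower). DESeq2 gave no adjusted p for 2 of the 9. PIP tdT+ replicate 1 stood apart, with 53.46 CPM of Ccl7 against 175.4 to 223.7 CPM in the others. Its Ccl5 was at 4.003 CPM, against 13.46 to 18.64 CPM. Without that library 0.221% of genes and 0 members were called. Ccl12 was at 592 to 720.7 CPM in PIP double positive cells, against 392.7, 317.9, 432.5 and 394 CPM in tdT+ cells, higher in every library by less than 2-fold (0.82 ± 0.11, 0.0394), and at 975.8, 851.6, 965.6 and 1006 CPM in PIP CD45+ cells. In C9a.SII cells 0 of 7 were called by edgeR, 1 had an unadjusted p under 0.05, and that 1, Ccl5, was called by DESeq2 (0.0114) and without the low-count filter (1.0e-04), where 0.148% of genes were called (0.115% higher, 0.0321% lower).

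In hCD2.SII cells 1 of 6 tested members was lower in double positive than in YFP+ cells and 0 were higher, where 12.2% of genes were called (8.08% higher, 4.13% lower). Ccl5 was at 4.041, 2.093 and 0.3397 CPM in double positive cells, against 9.929, 10.1, 8.453 and 9.679 CPM in YFP+ cells (log2 fold change -2.02 ± 0.49, adjusted p = 0.0203). That call was lost with a replicate block (0.0784) and in 5 of 7 fits without 1 library, those without double positive replicate 2 (0.0753) or any YFP+ library (0.0527 to 0.0554). Without double positive replicate 1, the library rich in fibroblast markers, 5 members were lower: Ccl2 (-1.95, 6.5e-12), Ccl7 (-4.45, 7.4e-16), Ccl5 (-2.94), Ccl3 (-1.69, 0.00296) and Ccl12 (-1.64, 0.0308). YFP+ cells carried 8397 to 9339 CPM of fibroblast markers with Ccl2 at 549.6 to 588.7 CPM and Ccl7 at 219.6 to 254.4 CPM, against 655.2 to 742.3 CPM and 268.1 to 324.4 CPM in hCD2.MEF.

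No member was called different between the 2 MEF lines, or between the SII responses of the 2 lines, with all libraries kept. Between hCD2.MEF and C9a.MEF 0 of 3 tested members were called by edgeR, 1 had an unadjusted p under 0.05 and DESeq2 called 0, where 2.93% of genes were called (1.43% higher, 1.5% lower). Ccl5 was at 6.05 ± 1.08 CPM in hCD2.MEF and 9.772 ± 0.451 CPM in C9a.MEF (SD, n = 4 each), lower in every hCD2.MEF library but by less than 2-fold (-0.67 ± 0.14, 0.00237), and Ccl2 (0.02 ± 0.04, 0.736) and Ccl7 (-0.03 ± 0.05, 0.718) overlapped. The response to SII, day 9 double positive over own MEFs, was not called different between hCD2 and C9a cells in any of 7 tested members by edgeR; 0 had an unadjusted p under 0.05 and DESeq2 called 0, where 0.568% of genes were called (0.388% higher, 0.18% lower). DESeq2 gave no adjusted p for 4 of the 7. For Ccl2 the difference was 0.20 ± 0.51 on the log2 scale (adjusted p = 0.918). For Ccl7 it was 0.64 ± 0.97 (0.83), and it turned to -1.68 (0.0185) without hCD2.SII replicate 1. The other 5 differences were -1.61 ± 1.01 for Ccl12 (0.512), -0.72 ± 0.80 for Ccl9 (0.745), -0.62 ± 1.77 for Ccl6 (0.932), 0.49 ± 0.61 for Ccl5 (0.777) and -0.08 ± 1.23 for Ccl3 (0.997). A missed threshold with standard errors of this size does not show that the responses were alike.

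The rest of the chemokine system was read from lists chosen with earlier results of these data known. Among 13 other CC, XC and CX3C chemokines, 2 of 7 tested rose and 2 fell with PIB, 3 of 7 rose and 1 fell with PIP, 0 rose and 4 fell with C9a.SII, and 0 of 7 moved with hCD2.SII, all over their own MEFs at day 9. Over all genes 10.4% were called higher and 11.4% lower with PIB, 15.2% and 14.5% with PIP, 10.5% and 10.9% with C9a.SII and 10.8% and 8.41% with hCD2.SII. Ccl8, a monocyte chemoattractant protein, was at 8453 ± 626 CPM in PIP cells (SD, n = 4), against 15.06 ± 1.25 CPM in C9a.MEF (log2 fold change 9.36 ± 0.08, adjusted p = 9.9e-21). PIB cells had 480 ± 71.3 CPM of Ccl8 (SD, n = 5; 5.05 ± 0.11, 3.8e-12), and in C9a.SII cells it fell to 1.801 ± 1.41 CPM (-2.86 ± 0.33, 3.7e-05). Ccl11, the eosinophil attractant eotaxin, rose with PIP to 262 CPM against 70.5 CPM in C9a.MEF (2.12 ± 0.06, 4.4e-15), but fell with PIB to 8.28 CPM (-3.05 ± 0.25, 6.1e-06) and with C9a.SII to 0.075 CPM (-9.31 ± 0.25, 1.3e-09). Cx3cl1, the membrane-bound fractalkine, rose with PIP (2.93 ± 0.08, 8.7e-15) and PIB (1.03 ± 0.21, 0.00162) and fell with C9a.SII (-3.60 ± 0.23, 3.9e-07). Ccl20, the Ccr6 ligand, fell with PIB (-3.09 ± 0.30, 5.2e-06), PIP (-2.08 ± 0.16, 5.0e-09) and C9a.SII (-2.02 ± 0.19, 6.9e-06).

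Ccr2 and Ccr1 rose with both Spi1 cocktails. Ccr2, the receptor of Ccl2, Ccl7 and Ccl12, was at 150 ± 30.4 CPM in PIB cells and 53.9 ± 11.2 CPM in PIP cells, against 0.0874 CPM in C9a.MEF (log2 fold changes 10.63 ± 0.25 and 9.32 ± 0.24, adjusted p 1.5e-11 and 8.4e-15). It was at 8.29 ± 6.45 CPM in hCD2.SII cells (5.73 ± 1.04, 0.00521). Ccr1, the receptor of Ccl6 and Ccl9, was at 39.8 ± 5.19 CPM with PIB (8.45 ± 0.27, 3.1e-11) and 5.61 ± 0.404 CPM with PIP (5.78 ± 0.37, 4.4e-10). Of 4 atypical receptors, which take up chemokines without signalling through G proteins, Ackr3 alone was tested, and it fell in all 4 comparisons (-3.15 ± 0.19 with PIB, -3.54 ± 0.20 with PIP, -1.73 ± 0.21 with C9a.SII and -1.54 ± 0.41 with hCD2.SII).

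Of 14 NF-kappaB subunits and feedback targets, 6 of 14 tested rose with PIB, 6 of 14 with PIP, 4 of 12 with C9a.SII and 6 of 12 with hCD2.SII, and 0 fell, where 10.4%, 15.2%, 10.5% and 10.8% of all genes were called higher. Their median log2 fold changes were 0.80, 0.86, 0.76 and 0.91 in the same order, against -0.00, 0.05, 0.03 and 0.01 over all genes tested. Il1b, the cytokine interleukin 1 beta, reached 63.5 ± 13.9 CPM with PIB and 60.5 ± 11.7 CPM with PIP, against 0.046 CPM in C9a.MEF (10.26 ± 0.49, adjusted p = 5.3e-08, and 10.34 ± 0.31, 1.0e-11). Nfkbie, which encodes the inhibitor I-kappaB epsilon, rose with PIB (2.35 ± 0.09, 7.7e-11) and PIP (2.85 ± 0.08, 6.2e-15). Rel, the subunit c-Rel, rose with PIB (1.95 ± 0.13), PIP (2.03 ± 0.12), C9a.SII (2.33 ± 0.12) and hCD2.SII (2.25 ± 0.29).

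Across the 41 group means of log2 CPM, which share libraries, reporters and fibroblast origin, some members ran together. These means keep the 3 libraries whose factors went against their labels. Pearson's r was 0.895 between Ccl2 and Ccl7, 0.914 between Ccl12 and Ccl17 and 0.872 between Ccl6 and Ccl9. Ccl22 had an r of 0.627 with Ccl12 and 0.625 with Ccl17. Ccl3, Ccl4 and Ccl5 had no r above 0.532 with another member. Among 11397 genes that reached 10 CPM in some group, the 3 closest in pattern to Ccl2 were Colec12 (r = 0.977), Azin2 (0.968) and Slc39a1 (0.968), and to Ccl7 Mmp14 (0.976), Gpx8 (0.973) and Akr1b8 (0.972). Those closest to Ccl12 were Atp6ap2 (0.978), Ccl8 (0.971) and Cpeb4 (0.963), and to Ccl6 Lyz2 (0.937), Slc15a3 (0.915) and Siglec1 (0.886). Ccl9 was closest to Uprt (0.896), Smpdl3a (0.888) and Ctsc (0.884), and Ccl5 to Xdh (0.758), Ifi205 (0.751) and Tmem106a (0.750). Ccl17 was closest to Bcar3 (0.954), Dhrs9 (0.940) and Ifit2 (0.937), and Ccl22 to Sema4a (0.956), Tent5c (0.952) and Slamf7 (0.946). Ccl3 and Ccl4 reached 10 CPM in no group and were left out of this comparison.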

How the data were processed

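Bulk RNA was sequenced from 41 groups of sorted cells, 5000 cells per extraction, with a stranded total RNA kit and 13 to 14 PCR cycles, per the labels' protocols. The deposited table holds raw read counts per Ensembl gene ID made by the authors. The submitters' processing notes name STAR 2.7.9a, Salmon 1.10.1 and mm10, while the counting strand and annotation release are not given in the sources used here. Of 57010 IDs, 52029 were named, and unnamed IDs held 5.98% to 32.1% of counts (median 13.2%). Every column matched a library by its label. No 2 libraries of a group agreed within sampling noise (chi-square per degree of freedom at least 2.68 over 266 pairs).

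Each of 28 comparisons was fitted on its own libraries with edgeR 4.0.16 (robust quasi-likelihood test, TMM scaling, genes kept by filterByExpr, Benjamini-Hochberg adjustment over all genes kept) in R 4.3.3, and called at an adjusted p below 0.05 and at least 2-fold. Alternatives were DESeq2 1.42.0 (its size factors and its Wald test), no low-count filter, a replicate block, the adjusted p alone, no libraries under 2000000 counts, leaving out each library, and 1 fit over all groups. The fit was tested on simulated data. Where all libraries of a group were at 0, the fold is a bound against 3 counts over the group. A member near 0 in 1 group of a comparison passed the low-count filter through the other group, which favours a call in that direction. The 10 members and the gene lists were chosen with earlier results of these data known. All members are named in each comparison, and from each list up to 3 called genes of largest change with at least 5 CPM, while other list genes were named after their values were seen. Like patterns were ranked by Pearson's r of group mean log2 CPM with 1 added. In hCD2.SII at day 9 against hCD2.MEF, same-numbered double positive and MEF libraries deviated together to a small degree (correlations 0.218, 0.109 and 0.112, each above 0.1). The labels do not say that replicate numbers pair libraries. C9a.MEF is shared by the PIB, PIP and C9a.SII comparisons. The counts over the list of CC chemokine receptors are not reported here.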

Additional observations from a re-analysis of the deposited data

Results flagged for a closer look

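Of 78 sets of 4 or 5 libraries looked at, 9 had 1 library far from the others, and chance flags about 1 in 20 groups. C9a.SII day 9 double positive replicate 1, with the fewest counts of all libraries (1146927), had 86.3 CPM of Ccl2 against 254 to 274 in the other 3 and 10.5 CPM of Ccl7 against 40.6 to 43.2. Replicate 2 of the same group had 31.2 CPM of Ccl6 against 1.54 to 2.25. C9a.SII day 3 double positive replicate 4 had 16.8 CPM of Ccl5 against 0.19 to 1.78, with the highest fibroblast-marker sum of its group (3662 CPM). PIB day 9 double positive replicate 5 had 172 CPM of Ccl7 against 277 to 299 and 60.8 CPM of Ccl12 against 31.2 to 39.2, with the highest macrophage and monocyte marker sum of its group (1274 CPM). PIB day 9 tdT+ replicate 2 had 176 CPM of Ccl9 against 72.2 to 93.3. C9a.SII day 9 tdT+ replicate 1 had 120 CPM of Ccl7 against 41.4 to 49.5. C9a.MEF replicate 1 had 706 CPM of Ccl2 against 690 to 692. What sets these libraries apart was not tested.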

How the results depend on the processing

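Values in brackets are those of the fits reported above, and the cause of the changes was not tested. DESeq2's size factors moved no count of calls by over 1.5 times. A share of all genes is listed where the number called changed by over 1.5 times, and it can fall while that number rises, since more genes are tested without the filter and in 1 fit over all groups. Without the low-count filter, member calls were 5 (2) for hCD2.SII against hCD2.MEF at day 9, 5 (3) for hCD2.SII against hCD2.MEF at day 3, 1 (0) for C9a.SII day 9 against day 3 and 2 (0) for hCD2.SII day 9 against day 3. Further member calls were 5 (3) for C9a.SII against pDC, 5 (3) for hCD2.SII against pDC, 2 (0) for PIP double positive against reporter+ and 1 (0) for C9a.SII double positive against reporter+. The remaining member calls were 2 (1) for hCD2.SII double positive against reporter+. Without the low-count filter, shares of all genes called were 7.05% (12.1%) for PIB day 9 against day 3, 3.4% (6.21%) for PIP day 9 against day 3, 0.291% (0.103%) for C9a.SII day 9 against day 3 and 4.69% (6.55%) for hCD2.SII day 9 against day 3. Further shares of all genes called were 41.2% (57.5%) for PIB against cDC1, 25% (38.2%) for C9a.SII against pDC, 23.8% (34.8%) for cDC2 against cDC1 and 1.74% (2.93%) for hCD2.MEF against C9a.MEF. The remaining shares of all genes called were 0.339% (0.0122%) for PIP double positive against reporter+ and 0.471% (0.148%) for C9a.SII double positive against reporter+. With the replicate number as a block, member calls were 0 (1) for hCD2.SII double positive against reporter+. With the replicate number as a block, shares of all genes called were 3.36% (6.21%) for PIP day 9 against day 3, 0.0129% (0.103%) for C9a.SII day 9 against day 3, 2.87% (6.55%) for hCD2.SII day 9 against day 3 and 0.0061% (0.0122%) for PIP double positive against reporter+. Further shares of all genes called were 0.0385% (0.148%) for C9a.SII double positive against reporter+, 4.07% (12.2%) for hCD2.SII double positive against reporter+ and 0.259% (0.568%) for hCD2.SII minus C9a.SII response. With DESeq2's Wald test, member calls were 4 (2) for hCD2.SII against hCD2.MEF at day 9, 4 (2) for PIP day 9 against day 3, 1 (0) for PIP double positive against reporter+ and 1 (0) for C9a.SII double positive against reporter+. Further member calls were 3 (1) for hCD2.SII double positive against reporter+. With DESeq2's Wald test, shares of all genes called were 1.38% (0.103%) for C9a.SII day 9 against day 3, 0.414% (0.0122%) for PIP double positive against reporter+, 0.77% (0.148%) for C9a.SII double positive against reporter+ and 1.49% (0.568%) for hCD2.SII minus C9a.SII response. With the adjusted p alone and no fold threshold, member calls were 5 (2) for PIB day 9 against day 3, 1 (0) for hCD2.MEF against C9a.MEF, 2 (1) for PIB double positive against reporter+ and 1 (0) for PIP double positive against reporter+. With the adjusted p alone and no fold threshold, shares of all genes called were 56.9% (21.8%) for PIB against C9a.MEF at day 9, 68.1% (29.6%) for PIP against C9a.MEF at day 9, 47.7% (21.4%) for C9a.SII against C9a.MEF at day 9 and 38% (19.2%) for hCD2.SII against hCD2.MEF at day 9. Further shares of all genes called were 57.5% (22.8%) for PIB against C9a.MEF at day 3, 47.9% (21.8%) for PIP against C9a.MEF at day 3, 35.3% (17.6%) for C9a.SII against C9a.MEF at day 3 and 56.3% (24.1%) for hCD2.SII against hCD2.MEF at day 3. The remaining shares of all genes called were 37.2% (12.1%) for PIB day 9 against day 3, 15.1% (6.21%) for PIP day 9 against day 3, 11.7% (6.55%) for hCD2.SII day 9 against day 3 and 52.6% (21.6%) for PIB against PIP. The remaining shares of all genes called were 45.7% (22.5%) for C9a.SII against PIP, 39.5% (18.5%) for PIB against C9a.SII, 59.5% (34.8%) for cDC2 against cDC1 and 20.7% (2.93%) for hCD2.MEF against C9a.MEF. The remaining shares of all genes called were 5.17% (1.7%) for PIB double positive against reporter+, 0.0792% (0.0122%) for PIP double positive against reporter+ and 28.3% (12.2%) for hCD2.SII double positive against reporter+. Without the 2 libraries under 2000000 counts, member calls were 1 (0) for C9a.SII day 9 against day 3 and 5 (3) for C9a.SII against pDC. Without the 2 libraries under 2000000 counts, shares of all genes called were 0.717% (0.103%) for C9a.SII day 9 against day 3, 48.4% (38.2%) for C9a.SII against pDC, 0.237% (0.148%) for C9a.SII double positive against reporter+ and 1.09% (0.568%) for hCD2.SII minus C9a.SII response. In 1 fit over all groups, member calls were 5 (2) for hCD2.SII against hCD2.MEF at day 9, 1 (2) for PIB day 9 against day 3, 2 (0) for C9a.SII day 9 against day 3 and 1 (0) for hCD2.SII day 9 against day 3. Further member calls were 7 (3) for C9a.SII against pDC, 5 (3) for hCD2.SII against pDC, 0 (1) for PIB double positive against reporter+ and 3 (1) for hCD2.SII double positive against reporter+. In 1 fit over all groups, shares of all genes called were 1.89% (6.21%) for PIP day 9 against day 3, 1.59% (0.103%) for C9a.SII day 9 against day 3, 5.78% (6.55%) for hCD2.SII day 9 against day 3 and 45.6% (38.2%) for C9a.SII against pDC. Further shares of all genes called were 39.2% (33%) for hCD2.SII against pDC, 32.8% (34.8%) for cDC2 against cDC1, 16.5% (15.8%) for pDC against cDC1 and 43.6% (34.9%) for pDC against cDC2. The remaining shares of all genes called were 0.0696% (2.93%) for hCD2.MEF against C9a.MEF, 0.443% (1.7%) for PIB double positive against reporter+ and 0.905% (0.148%) for C9a.SII double positive against reporter+. In that fit without the 3 contradicting libraries, chosen after seeing the data, member calls were 8 (5) for C9a.SII against C9a.MEF at day 9, 6 (2) for hCD2.SII against hCD2.MEF at day 9, 5 (3) for hCD2.SII against hCD2.MEF at day 3 and 3 (0) for C9a.SII day 9 against day 3. Further member calls were 1 (0) for hCD2.SII day 9 against day 3, 7 (3) for C9a.SII against pDC, 5 (3) for hCD2.SII against pDC and 3 (1) for hCD2.SII double positive against reporter+. In that fit without the 3 contradicting libraries, chosen after seeing the data, shares of all genes called were 15.5% (17.6%) for C9a.SII against C9a.MEF at day 3, 2.01% (0.103%) for C9a.SII day 9 against day 3, 6.54% (6.55%) for hCD2.SII day 9 against day 3 and 46.6% (38.2%) for C9a.SII against pDC. Further shares of all genes called were 40% (33%) for hCD2.SII against pDC, 33.8% (34.8%) for cDC2 against cDC1, 17% (15.8%) for pDC against cDC1 and 44.3% (34.9%) for pDC against cDC2. The remaining shares of all genes called were 0.114% (2.93%) for hCD2.MEF against C9a.MEF and 1.09% (0.148%) for C9a.SII double positive against reporter+.

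Leaving out 1 library at a time, the calls ranged as follows. 4 to 6 members and 21% to 22.1% of genes for PIB against C9a.MEF at day 9 were called, and 8 members and 29.7% to 30.7% of genes for PIP against C9a.MEF at day 9. 5 to 7 members and 20.4% to 23.6% of genes for C9a.SII against C9a.MEF at day 9 were called, and 1 to 4 members and 13.6% to 32.9% of genes for hCD2.SII against hCD2.MEF at day 9. 4 to 5 members and 21.1% to 24.5% of genes for PIB against C9a.MEF at day 3 were called, and 4 to 7 members and 18.7% to 27.4% of genes for PIP against C9a.MEF at day 3. 3 to 4 members and 15.1% to 21.7% of genes for C9a.SII against C9a.MEF at day 3 were called, and 3 to 5 members and 23.2% to 25.7% of genes for hCD2.SII against hCD2.MEF at day 3. 2 to 3 members and 8.71% to 13.8% of genes for PIB day 9 against day 3 were called, and 2 to 3 members and 3.92% to 7.05% of genes for PIP day 9 against day 3. 0 to 1 members and 0% to 1.56% of genes for C9a.SII day 9 against day 3 were called, and 0 to 1 members and 3.35% to 15.7% of genes for hCD2.SII day 9 against day 3. 6 members and 20.3% to 22.7% of genes for PIB against PIP were called, and 5 to 6 members and 21.1% to 24.5% of genes for C9a.SII against PIP. 7 to 8 members and 17% to 19.4% of genes for PIB against C9a.SII were called, and 9 members and 56.1% to 58.6% of genes for PIB against cDC1. 8 to 10 members and 54% to 56.3% of genes for PIP against cDC2 were called, and 3 to 4 members and 30.9% to 45.3% of genes for C9a.SII against pDC. 2 to 3 members and 20.4% to 40.9% of genes for hCD2.SII against pDC were called, and 5 members and 34.1% to 39.3% of genes for cDC2 against cDC1. 1 to 3 members and 8.61% to 21.9% of genes for pDC against cDC1 were called, and 4 to 5 members and 15.8% to 40.3% of genes for pDC against cDC2. 0 members and 2.08% to 4.61% of genes for hCD2.MEF against C9a.MEF were called, and 1 members and 1.08% to 2.31% of genes for PIB double positive against reporter+. 0 members and 0.00588% to 0.221% of genes for PIP double positive against reporter+ were called, and 0 members and 0.0309% to 0.237% of genes for C9a.SII double positive against reporter+. 0 to 5 members and 6.83% to 28.7% of genes for hCD2.SII double positive against reporter+ were called, and 0 to 1 members and 0.259% to 4.26% of genes for hCD2.SII minus C9a.SII response.

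Among the member results 1 changed sign and passed the test: the hCD2.SII minus C9a.SII difference of Ccl7 was 0.64 as reported, -1.68 without hCD2.SII day 9 replicate 1 and between -1.68 and 1.14 over all fits without 1 library. Calls of single members were lost in 7 results without the low-count filter, 6 with the block, 10 in 1 fit over all groups and 39 over all fits without 1 library, and gained in 8, 1, 8 and 18. A DESeq2 adjusted p that was not given counts neither as kept nor as lost. Same-numbered libraries of the hCD2.SII day 9 double positive and hCD2.MEF groups deviated together, and the block changed no member call there. The shared numbers were not shown to pair the libraries, so a call lost under the block is not a weaker effect. TMM-scaled CPM kept 365 of the group means of members within 1 SD of the CPM of the library total and moved 45. Depth limits Ccl3, Ccl4 and, in SII cells, Ccl17 and Ccl22, which were left untested for low counts in several comparisons.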
